A study of Mus musculus with 12 samples.

Results

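Among the transcripts measured in mouse macrophages and osteoclasts were 10 genes of prostaglandin and leukotriene metabolism: Pla2g4a, Ptgs1, Ptgs2, Ptges, Ptges2, Hpgd, Ptger2, Ptger4, Alox5 and Alox5ap. They were taken by gene symbol from a table of 54532 genes, and each symbol matched 1 Ensembl gene identifier. Bulk RNA sequencing had been done on 12 libraries in 4 groups of 3, all from wild-type (WT) bone marrow. Marrow cells from femurs and tibiae were expanded into bone marrow-derived macrophages in CMG, which the labels describe as an M-CSF source, and osteoclasts were grown from the same kind of culture with RANKL, given as 100 ng/mL in the sample labels. On day 5 each cell type received 100 ng/mL lipopolysaccharide (LPS) for 3 h or none. The groups are thus untreated macrophages, LPS-treated macrophages, untreated osteoclasts and LPS-treated osteoclasts; CMG was shared by all, and RANKL was in the osteoclast cultures alone. Nothing in the labels says whether replicates came from separate mice or cultures, so p-values measure the spread between these libraries, which may be technical.

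Prostaglandins and leukotrienes are short-lived lipid mediators made from arachidonic acid, which cytosolic phospholipase A2 cuts from membrane phospholipids. Cyclooxygenases turn it into prostaglandin H2, terminal synthases make prostaglandin E2 (PGE2) from that, 15-hydroxyprostaglandin dehydrogenase inactivates PGE2, and the receptors EP2 and EP4 pass its signal on through cyclic AMP. In a separate branch, 5-lipoxygenase and its activating protein FLAP start leukotriene synthesis. In bone, PGE2 is known as a product of inflammation that acts through EP2 and EP4 on osteoblasts and on osteoclast precursors.

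Values are FPKM, reads scaled for exon length and for the library, so that levels of different genes can be compared. The deposited FPKM kept the typical gene level between libraries, not the read total: column sums ran from 255852 to 408994, and between 15651955 and 20281567 reads per library were assigned to genes. Differences were tested with limma on log2(FPKM + 1) over 11335 genes that reached 1 FPKM in 3 or more libraries, and a gene was called at a Benjamini-Hochberg adjusted p under 0.05. Adding 1 understates the change of genes near 0, so the fold between pooled reads is given where it matters, with a 95% interval (exact, Clopper-Pearson) that covers counting error only. All 10 genes passed the filter, but Hpgd, Ptger2 and Ptger4 passed through macrophage libraries alone and Ptges through LPS-treated libraries alone. The LPS-treated osteoclast libraries differed most among themselves, with chi-square per degree of freedom of 8.77 to 13.9 between pairs against 2.72 to 6.93 in the other groups, and their replicate 2 had the lowest library weight, 0.493. Summed levels of 8 osteoclast markers were 22047 to 24273 FPKM in osteoclast libraries and 6.62 to 21.1 FPKM in macrophage libraries. Summed levels of 6 macrophage markers were 1364 to 1694 FPKM in macrophages and 345.5 to 367.4 FPKM in osteoclasts, where Csf1r, which osteoclasts also express, made up most of the sum at group means of 310.2 and 292.8 FPKM. With LPS the osteoclast means of the others went from 33.1 to 62.2 FPKM for Adgre1, from 0.429 to 1.496 for Fcgr1, from 2.57 to 2.79 for Mrc1, from 1.79 to 1.49 for Mertk and from 0.486 to 0.256 for Cx3cr1. Adgre1 and Fcgr1 were called for LPS in osteoclasts, at 0.85 and 0.79 (limma adjusted p 0.00258 and 7.35e-04), and Csf1r, Mrc1, Mertk and Cx3cr1 were not, at -0.08, 0.05, -0.17 and -0.24.

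LPS for 3 h left macrophages and osteoclasts with very different amounts of the PGE2-making transcripts, but with the same cyclooxygenase isoform in the lead. In macrophages Ptgs2 and Ptges each rose about 76-fold, and Pla2g4a, Ptger2 and Ptger4 rose 2.53-fold to 4.59-fold, on the deposited scale. After rescaling to TPM, in which every library has the same sum, these rises were smaller. Mean TPM went from 8.41 to 411 for Ptgs2 and from 2.30 to 112 for Ptges. It went from 18.7 to 30.3 for Pla2g4a, from 7.06 to 20.8 for Ptger2 and from 15.6 to 36.5 for Ptger4. In osteoclasts Ptgs2 and Ptges rose as well, from almost nothing to levels below those of treated macrophages, while the 3 other genes that rose in macrophages were not called on the deposited scale. Osteoclasts had less of 8 of the 10 transcripts before LPS, where 39% of all genes tested were lower. They had more of a single one, Ptges2, where 38.8% were higher, in a comparison that called 77.8% of all genes tested. Hpgd, Ptger2 and Ptger4, counted among the 8, had passed the filter through macrophage libraries alone, so nothing is read from this count. For LPS, 69.9% of all genes tested were called in macrophages and 17.7% in osteoclasts.

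**Figure D1:**
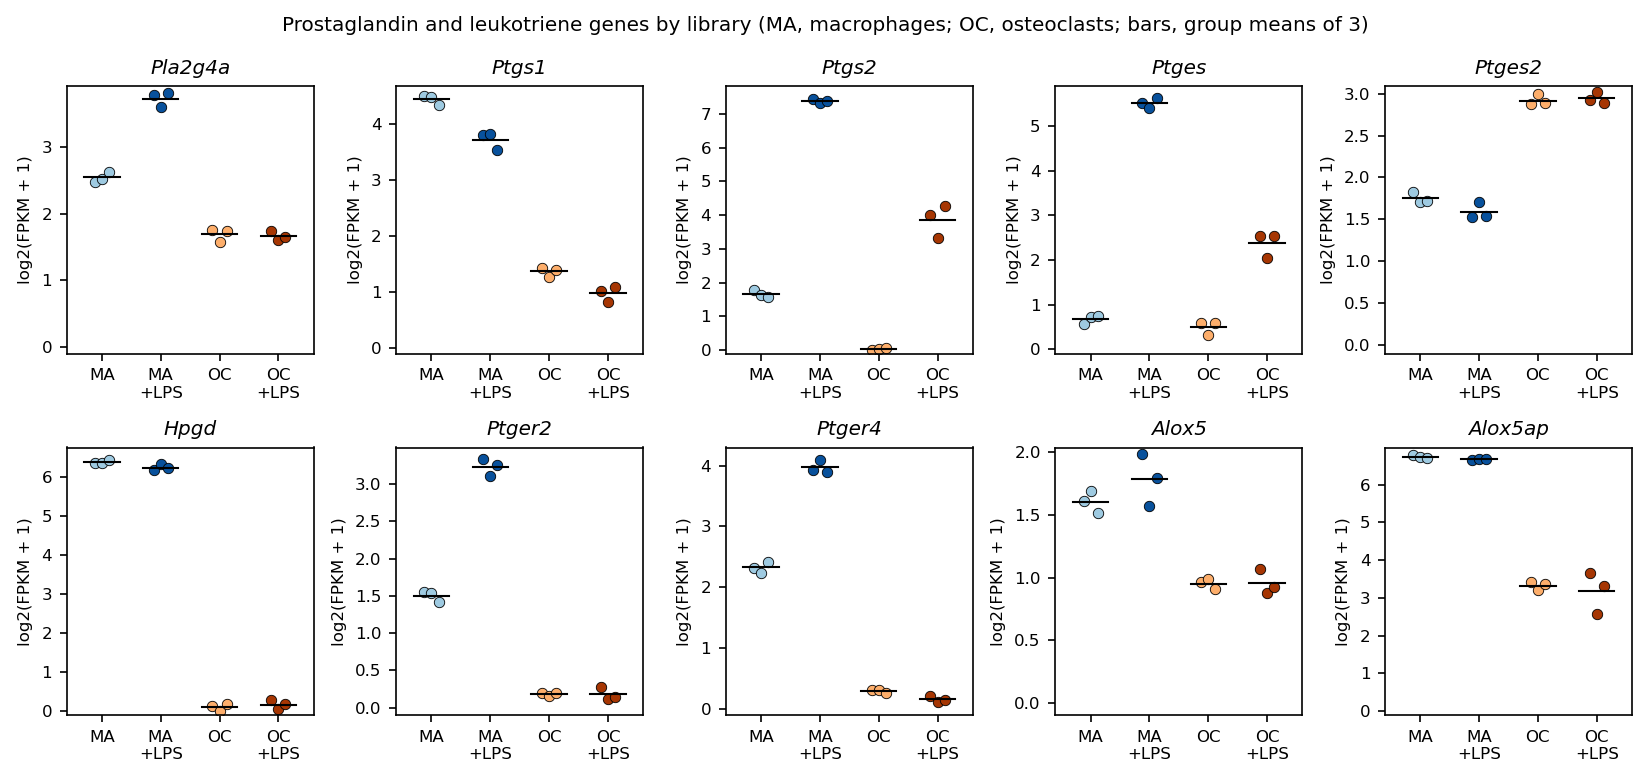
FPKM of the 10 genes on the log2(FPKM + 1) scale in each of the 12 libraries, 3 to a group (points) with the group mean (bar); MA is macrophages and OC osteoclasts, and each panel has its own vertical scale. Ptgs2 and Ptges are high in both LPS-treated groups, while Pla2g4a, Ptger2 and Ptger4 are highest in LPS-treated macrophages.

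Pla2g4a (ENSMUSG00000056220, mm10 chromosome 1, 149829618 to 149961290, minus strand) encodes cytosolic phospholipase A2 alpha, which releases arachidonic acid. It was at 4.58, 4.76 and 5.19 FPKM in untreated macrophages and at 12.7, 11.2 and 13.0 FPKM after LPS. In osteoclasts it was at 2.39, 1.98 and 2.33 FPKM without LPS and at 2.33, 2.04 and 2.13 FPKM with it. Every treated macrophage library was above every untreated one, whereas the osteoclast groups overlapped. The LPS effect was 1.18 on the log2(FPKM + 1) scale in macrophages (SE 0.07, limma adjusted p 2.21e-08) and -0.03 in osteoclasts (limma adjusted p 0.824). The osteoclast effect minus the macrophage effect, the interaction, was -1.21 (SE 0.10, limma adjusted p 9.43e-07), and it was called on every scale tried. By pooled reads the osteoclast change was a 1.03-fold decrease with an interval from 0.928 to 1.14, so a rise as large as the 2.53-fold one of macrophages lay outside its counting error.

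Both cyclooxygenases make prostaglandin H2; Ptgs1 encodes the constitutive form, COX-1, and Ptgs2 the inducible form, COX-2. Ptgs2 (ENSMUSG00000032487, mm10 chromosome 1, 150100031 to 150108227, plus strand) was at 2.41, 2.13 and 1.98 FPKM in untreated macrophages and at 174, 160 and 165 FPKM after LPS. In untreated osteoclasts it had 1, 2 and 3 reads, or 0.0118, 0.0258 and 0.0385 FPKM, and after LPS it reached 15.1, 9.07 and 18.2 FPKM. No library of a treated group overlapped its control in either cell type, and all treated osteoclasts lay far below all treated macrophages. Among treated osteoclasts replicate 2 was lowest for Ptgs2 and for all the other genes of the 10 except Ptges2, for which it was highest. Of the 6 macrophage markers, Adgre1, Fcgr1, Mrc1, Mertk and Cx3cr1 were lowest in that library too and Csf1r was highest there; the part of macrophages in the osteoclast LPS changes was not tested. In bulk RNA, fewer expressing cells and less RNA per cell cannot be told apart.

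The promoters of the 2 cyclooxygenase genes are shown because the genes moved in opposite directions. They are the 250 bases before the RefSeq start on GRCm38.p6, the assembly of mm10, read 5′ to 3′ on the gene's strand, at chr1:150099781-150100030 for Ptgs2 (plus strand) and chr2:36230176-36230425 for Ptgs1 (plus strand). Capitals mark matches to TTNNGNAA, a loose form of the C/EBP motif and 1 of 10 motifs searched on both strands.
Ptgs2: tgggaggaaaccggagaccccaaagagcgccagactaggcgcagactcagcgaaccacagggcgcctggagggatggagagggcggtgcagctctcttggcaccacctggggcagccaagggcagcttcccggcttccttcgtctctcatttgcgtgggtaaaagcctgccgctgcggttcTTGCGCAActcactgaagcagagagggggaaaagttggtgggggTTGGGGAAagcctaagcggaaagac
Ptgs1: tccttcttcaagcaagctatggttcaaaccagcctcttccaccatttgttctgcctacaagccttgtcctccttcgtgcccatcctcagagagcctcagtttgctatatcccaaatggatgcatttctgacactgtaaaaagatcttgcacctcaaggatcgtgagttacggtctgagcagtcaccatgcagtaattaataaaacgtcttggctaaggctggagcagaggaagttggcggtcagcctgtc
Ptgs2 holds 2 matches, starting 69 and 25 bases before the start, and Ptgs1 none in this window. The match at -25 overlaps one to a loose kappaB form (GGG, any 5 bases, CC) at -23, and Ptgs1 holds a kappaB match as well, at 28 after the start. Such short motifs are common: of 32841 mouse promoter windows of 300 bases, 250 before and 50 after the start, 40.7% held TTNNGNAA and 50.8% held the kappaB form. After the start Ptgs2 also held TGACG, the core of the cyclic AMP response element, at 14 and CACGTG, an E-box, at 17, which 20.8% and 7.2% of windows held. The Ptgs2 window also overlaps exons of Ptgs2os, a transcript of the opposite strand. A match is a description of letters and does not show that a factor binds.

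For Ptgs2 the LPS effect was 5.72 in macrophages (SE 0.17, limma adjusted p 3.14e-11) and 3.83 in osteoclasts (SE 0.17, limma adjusted p 2.49e-08) on the log2(FPKM + 1) scale. Whether the response was smaller or larger in osteoclasts depended on the scale. The interaction was -1.89 as deposited (SE 0.25, limma adjusted p 3.64e-05), -0.29 after rescaling to TPM, in which every library has the same sum (limma adjusted p 0.305) and 2.62 by voom on the recovered reads (limma adjusted p 0.104). As a fold of pooled reads, Ptgs2 rose 76.4-fold in macrophages (70.8 to 82.5) and 577-fold in osteoclasts (264.8 to 1573), the latter from 6 reads in all. The level after LPS was 11.5-fold lower in osteoclasts (11.1 to 11.9 from counting error), while the level before it was 86.9-fold lower (39.7 to 237.7).

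Ptgs1 (ENSMUSG00000047250, mm10 chromosome 2, 36230426 to 36252272, plus strand) went the other way. It was at 21.4, 21.3 and 19.3 FPKM in untreated macrophages and at 12.8, 13.0 and 10.5 FPKM after LPS. In osteoclasts it was at 1.67, 1.42 and 1.64 FPKM, and at 1.03, 0.768 and 1.13 FPKM after LPS. In each cell type all treated libraries were below all untreated ones. It fell by 0.73 in macrophages (SE 0.09, limma adjusted p 1.47e-05) and by 0.39 in osteoclasts (SE 0.09, limma adjusted p 0.0115), or 1.71-fold and 1.60-fold by reads. Its interaction was 0.34 (SE 0.13, limma adjusted p 0.0382). The call was lost with a pseudocount of 0.1, with no filter and by voom. It was also lost in 7 of the 12 fits that left out a library, while the direction held. On the TPM scale the interaction of Ptgs1 was larger, at 0.79 (limma adjusted p 6.97e-04). There the LPS effects were -1.39 in macrophages and -0.60 in osteoclasts. An exon of Gm43621 lies antisense to Ptgs1, and that gene was at 0.185 FPKM or lower in every group mean.

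With LPS the leading isoform changed from Ptgs1 to Ptgs2 in both cell types. Ptgs2 made up 9.50% ± 0.540 (SD, n = 3) of the summed FPKM of both genes in untreated macrophages and 93.2% ± 0.776 after LPS. In osteoclasts its share was 1.60% ± 0.817 before and 93.3% ± 1.03 after. The shares after LPS overlapped between the cell types, with libraries from 92.5% to 94.0% in macrophages and from 92.2% to 94.2% in osteoclasts, although the sum of both genes was 178.7 FPKM ± 7.36 in the former and 15.1 FPKM ± 4.85 in the latter. Before LPS the sums were 22.8 FPKM ± 1.41 and 1.60 FPKM ± 0.137.

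**Figure D2:**
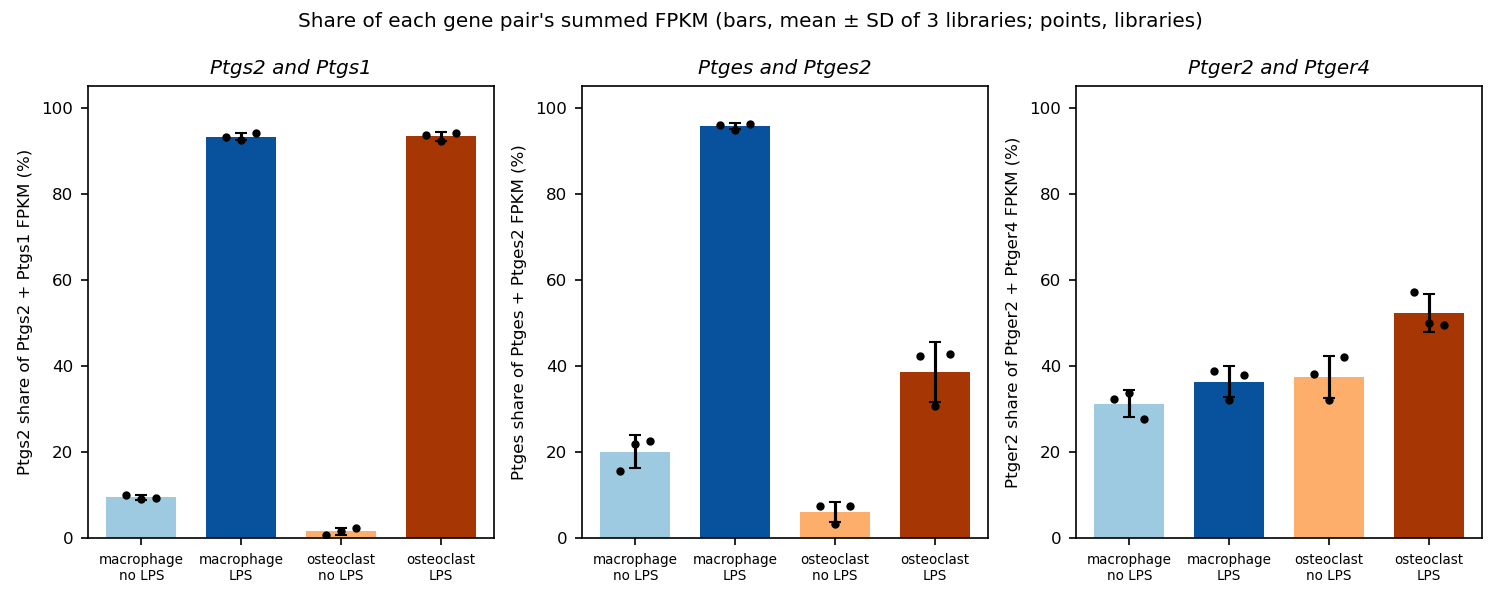
Share of the first gene in the summed FPKM of 3 gene pairs, in percent, for the 4 groups; bars are means of 3 libraries, error bars the SD and points the libraries. After LPS the Ptgs2 share is 93.2% in macrophages and 93.3% in osteoclasts, while the Ptges share is 95.7% and 38.6%.

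The terminal PGE2 synthases behaved differently from the cyclooxygenases. Ptges encodes the inducible microsomal synthase that is usually paired with COX-2, and Ptges2 a second, membrane-associated synthase. Ptges (ENSMUSG00000050737, mm10 chromosome 2, 30889471 to 30929863, minus strand) was at 0.472, 0.638 and 0.674 FPKM in untreated macrophages and at 45.3, 41.5 and 48.9 FPKM after LPS. In osteoclasts it was at 0.510, 0.241 and 0.509 FPKM, and at 4.83, 3.14 and 4.82 FPKM after LPS. The untreated groups overlapped, and each treated group was clear of its control. With LPS it was higher by 4.86 in macrophages (SE 0.13) and by 1.88 in osteoclasts (SE 0.13), that is 76.0-fold (65.0 to 89.4) and 10.3-fold (8.23 to 12.9) by reads. Ptges had passed the filter through LPS-treated libraries alone, so a rise with LPS was fixed by how it entered the test. Its interaction of -2.98 (SE 0.18, limma adjusted p 5.95e-08) was the furthest below 0 of the 10 genes on the deposited scale and was called on every scale tried.

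The Ptges promoter is given beside that of Ptgs2 because the pair rose together in both cell types. It lies at chr2:30903298-30903547 (minus strand, GRCm38.p6, RefSeq), inside the span of longer Ptges transcripts, with capitals as above.
Ptges: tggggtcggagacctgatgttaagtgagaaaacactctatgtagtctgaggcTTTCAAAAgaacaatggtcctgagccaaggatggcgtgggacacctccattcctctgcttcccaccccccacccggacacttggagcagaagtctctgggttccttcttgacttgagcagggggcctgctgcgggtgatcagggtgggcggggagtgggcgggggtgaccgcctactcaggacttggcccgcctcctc
Its TTNNGNAA match starts at -198, a kappaB match at -38, and GGGCGG, the GC box held by 35.7% of windows, occurs at -53 and -42. The sequence of Ptgs2 above holds its GGGCGG at -170.

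Ptges2 (ENSMUSG00000026820, mm10 chromosome 2, 32395896 to 32405772, plus strand) was the single gene of the 10 with more transcript in osteoclasts. It was at 2.54, 2.26 and 2.30 FPKM in untreated macrophages, against 6.36, 6.95 and 6.37 FPKM in untreated osteoclasts. With LPS it was at 1.87, 2.28 and 1.91 FPKM and at 6.56, 7.09 and 6.43 FPKM. The cell types were clear of each other, and the LPS groups overlapped their controls. It was higher in osteoclasts by 1.17 without LPS (SE 0.07, limma adjusted p 5.88e-09) and by 1.35 with LPS (SE 0.07, limma adjusted p 1.07e-09). Its LPS effect in macrophages, -0.16 (limma adjusted p 0.0482), lost its call in 10 of the 12 fits that left out a library, with no filter, after quantile normalization, by voom and with the 2 macrophage groups alone (limma adjusted p 0.0828, 0.301, 0.0967 and 0.0941), and in osteoclasts the effect was 0.03 (limma adjusted p 0.833).

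Ptges was 20.1% ± 3.87 (SD, n = 3) of the summed FPKM of the synthase pair in untreated macrophages and 95.7% ± 0.776 after LPS. In osteoclasts the share was 6.05% ± 2.34 and 38.6% ± 6.91, with treated libraries from 30.7% to 42.8%. Ptges2 thus stayed the more abundant synthase transcript in every treated osteoclast library, and Ptges was the more abundant in every treated macrophage library.

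Hpgd (ENSMUSG00000031613, mm10 chromosome 8, 56294585 to 56321043, plus strand) encodes the dehydrogenase that inactivates prostaglandins. It was at 80.6, 80.5 and 85.5 FPKM in untreated macrophages and at 71.0, 79.0 and 74.2 FPKM after LPS. Osteoclast libraries had 3, 0 and 4 reads of it without LPS and 7, 1 and 4 with LPS, against 1526 to 3206 reads in macrophage libraries. By reads it was 1034-fold lower in untreated osteoclasts (501.7 to 2573) and 561.9-fold lower in treated ones (321.4 to 1088). The second of these differences was -6.07 on the log2(FPKM + 1) scale (SE 0.07). Hpgd had passed the filter through macrophage libraries alone, so a lower level in osteoclasts was fixed by how it entered the test. In macrophages the treated libraries all lay below the untreated ones, but the effect of -0.14 was not called (limma adjusted p 0.0929). After rescaling to TPM it was -0.78 (limma adjusted p 1.36e-04), against a median of -0.55 over all genes on that scale, and after quantile normalization it was -0.89 (limma adjusted p 2.36e-07). At -0.14 it was also called by voom on the recovered reads (limma adjusted p 0.0483) and when the 2 macrophage groups alone were fitted (limma adjusted p 0.0364), so the size moved with the scaling and the call with the fit as well.

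The Hpgd promoter is shown as that of the gene with the widest gap between the cell types, at chr8:56294302-56294551 (plus strand, GRCm38.p6, RefSeq), with capitals as above.
Hpgd: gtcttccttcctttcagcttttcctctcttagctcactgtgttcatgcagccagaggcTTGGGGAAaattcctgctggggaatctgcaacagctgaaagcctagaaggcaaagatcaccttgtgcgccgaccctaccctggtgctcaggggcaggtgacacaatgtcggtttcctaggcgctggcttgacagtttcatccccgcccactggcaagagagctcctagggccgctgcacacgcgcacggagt
It holds a TTNNGNAA match at -192, a GGGCGG match at -50 and GAGGAA, a core of the PU.1 motif that 28.3% of windows held, at -230. GAGGAA also occurs at -247 in Ptgs2, at -149 in Ptges and at -24 in Ptgs1, so it is not particular to Hpgd among the 4 sequences.

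The PGE2 receptors rose in macrophages and were near 0 in osteoclasts. Ptger2 (ENSMUSG00000037759, mm10 chromosome 14, 44988195 to 45003820, plus strand) encodes EP2. Its levels were 1.92, 1.89 and 1.67 FPKM in untreated macrophages and 9.07, 7.66 and 8.55 FPKM after LPS. Osteoclast libraries held 10 to 14 reads of it without LPS and 7 to 22 with LPS, 0.136 FPKM ± 0.0189 and 0.136 FPKM ± 0.0684. The macrophage groups were clear of each other and the osteoclast groups overlapped. LPS raised it by 1.74 in macrophages (SE 0.07, limma adjusted p 6.31e-10) and the osteoclast effect was -0.00 (limma adjusted p 0.994), with an interaction of -1.74 (SE 0.10, limma adjusted p 4.38e-08). By reads the osteoclast ratio was 1.03 with an interval from 0.641 to 1.66, against 4.59-fold in macrophages.

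Ptger4 (ENSMUSG00000039942, mm10 chromosome 15, 5206661 to 5244187, minus strand) encodes EP4. Its levels were 4.00, 3.73 and 4.34 FPKM in untreated macrophages and 14.2, 16.1 and 13.97 FPKM after LPS. In osteoclasts they were 0.236, 0.240 and 0.204 FPKM, and 0.160, 0.0878 and 0.107 FPKM after LPS. Treated macrophages were all above their controls and treated osteoclasts all below theirs. The effect was 1.65 in macrophages (SE 0.07, limma adjusted p 4.85e-10) and -0.13 in osteoclasts, not called (limma adjusted p 0.205). With a pseudocount of 0.1 the osteoclast effect was -0.59 and called (limma adjusted p 0.00904), on 79 reads in all before LPS and 43 after it. It was -0.33 and called on the TPM scale too (limma adjusted p 0.0361), and by pooled reads the decrease was 1.88-fold (1.28 to 2.79). The interaction was -1.78 (SE 0.10, limma adjusted p 1.70e-08). Exons of Gm15937 and Ttc33 lie antisense to Ptger4, and Ttc33 was at 5.80 to 7.01 FPKM in the group means; whether reads were counted by strand is not given in the sources used here, and its part in the Ptger4 levels was not tested. Ptger2 has antisense neighbours too, Gm17173 and Gm49364, at 0.120 FPKM or lower in every group mean.

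EP2 and EP4 transcripts kept a similar balance in macrophages, where Ptger2 was 31.3% ± 3.09 (SD, n = 3) of the pair's summed FPKM before LPS and 36.4% ± 3.65 after it, with overlapping libraries. In osteoclasts the share was 37.4% ± 4.95 and 52.3% ± 4.35 of a sum under 0.4 FPKM in every library. The treated osteoclast libraries were at 57.3%, 49.9% and 49.6%, so a lead of Ptger2 rested on replicate 1: without that library the log2 ratio of Ptger2 to Ptger4 went from 0.13 to -0.014.

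Neither gene of the leukotriene branch was called for LPS in the fit of all 4 groups on the deposited scale. Alox5 (ENSMUSG00000025701, mm10 chromosome 6, 116410077 to 116461178, minus strand) encodes 5-lipoxygenase. It was at 2.05, 2.23 and 1.86 FPKM in untreated macrophages and at 2.96, 1.97 and 2.48 FPKM after LPS, with overlapping groups. In osteoclasts it was at 0.950, 0.980 and 0.874 FPKM and at 1.09, 0.837 and 0.894 FPKM, also overlapping. Its LPS effects were 0.18 in macrophages (limma adjusted p 0.12) and 0.00 in osteoclasts (limma adjusted p 0.989), and the macrophage value was called in opposite directions on other scales, at -0.34 on the TPM scale (limma adjusted p 0.0196) and at 0.26 after quantile normalization (limma adjusted p 0.025). It was also called, at 0.29, without LPS-treated macrophage replicate 2 (limma adjusted p 0.0133). Osteoclasts differed from macrophages by -0.65 without LPS (limma adjusted p 6.00e-05) and by -0.83 with LPS (limma adjusted p 5.86e-06).

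Alox5ap (ENSMUSG00000060063, mm10 chromosome 5, 149264767 to 149288153, plus strand) encodes FLAP, which presents arachidonic acid to 5-lipoxygenase. It was at 108, 106 and 104 FPKM in untreated macrophages and at 99.1, 101 and 101 FPKM after LPS. In osteoclasts it was at 9.65, 8.25 and 9.28 FPKM, and at 11.6, 4.98 and 9.03 FPKM after LPS. The treated macrophages lay just below their controls, and the treated osteoclasts spread to both sides of theirs, with replicate 2 lowest. Its LPS effects were -0.08 in macrophages (limma adjusted p 0.737) and -0.14 in osteoclasts (limma adjusted p 0.678), and on the TPM scale the macrophage value was -0.72 and called (limma adjusted p 0.00427). It was called too after quantile normalization, at -0.92 (limma adjusted p 8.87e-04), and, at the same -0.08, when the 2 macrophage groups alone were fitted (limma adjusted p 0.0342). It was 11.7-fold lower by reads in untreated osteoclasts (10.8 to 12.7) and 11.4-fold lower in treated ones (10.5 to 12.4), with log2 differences of -3.42 and -3.48 (limma adjusted p 6.92e-09 and 4.33e-09). Gm19719, which lies antisense to it, was at 0.189 FPKM or lower in every group mean. Alox5ap was 106.2 FPKM ± 2.15 against 2.05 FPKM ± 0.184 for Alox5 in untreated macrophages, and 9.06 FPKM ± 0.727 against 0.935 FPKM ± 0.0546 in untreated osteoclasts.

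Counted together, 7 of the 10 genes were called for LPS in macrophages, where 69.9% of all genes tested were called. Of these, 5 were higher, against 36.8% of all genes, and 2 lower, against 33.1%. In osteoclasts 3 were called, where 17.7% of all genes tested were: Ptgs2 and Ptges higher (11.1% of all genes) and Ptgs1 lower (6.59%). The libraries of treated and untreated cells did not overlap for 8 of the 10 genes in macrophages, where 74% of all genes did not, and for 4 in osteoclasts, where 34% did not. Of the 10 interactions 6 were called, against 56.6% of all genes: 5 below 0 (30%) and that of Ptgs1 above it (26.6%). The split was 4 below and 0 above with a pseudocount of 0.1 and by voom, 4 below and 3 above on the TPM scale, and 5 below and 3 above after quantile normalization. Ptges, called in both cell types, had passed the filter through LPS-treated libraries alone, so its rise was fixed by how it entered the test. In macrophages and for the interaction the shares called lie near those of all genes, so these counts say nothing particular about the pathway. The median log2 difference of the 10 genes was 0.68 in macrophages and 0.00 in osteoclasts, beside 0.02 and 0.01 over all genes. On the TPM scale all 10 were called in macrophages, 5 higher and 5 lower, as the median of all genes moved to -0.55.

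**Figure D3:**
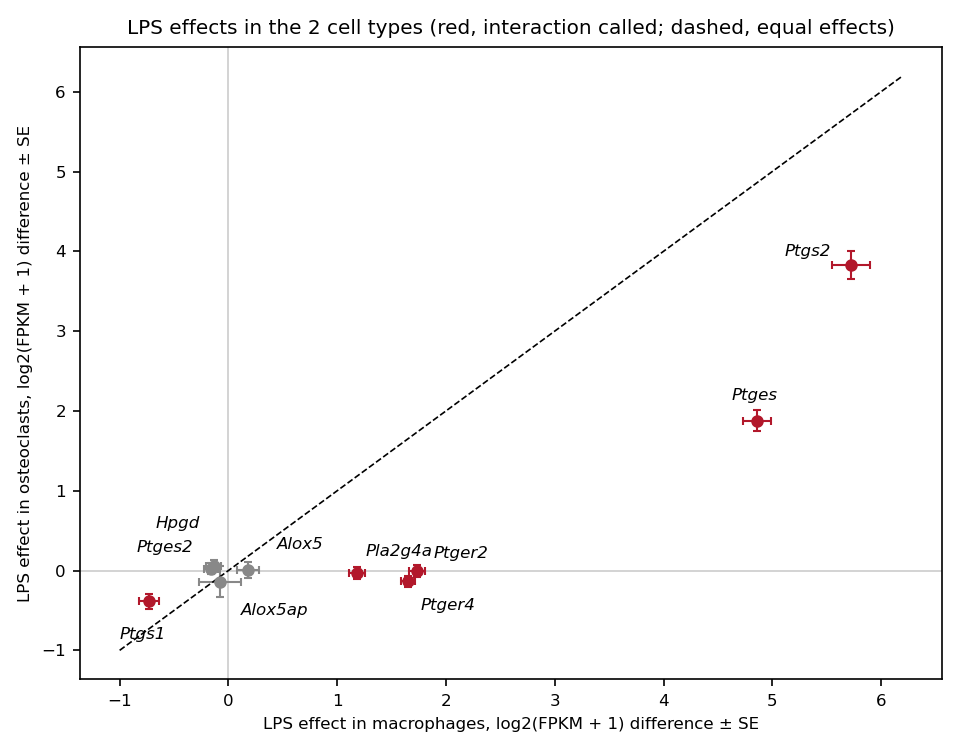
LPS effect of each gene in macrophages (horizontal) and osteoclasts (vertical) as the difference of mean log2(FPKM + 1), with standard errors; red marks a called interaction and the dashed line equal effects. Ptgs2 and Ptges lie below the line at effects of 3.83 and 1.88 in osteoclasts, and Pla2g4a, Ptger2 and Ptger4 lie along 0 for osteoclasts.

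**Figure D4:**
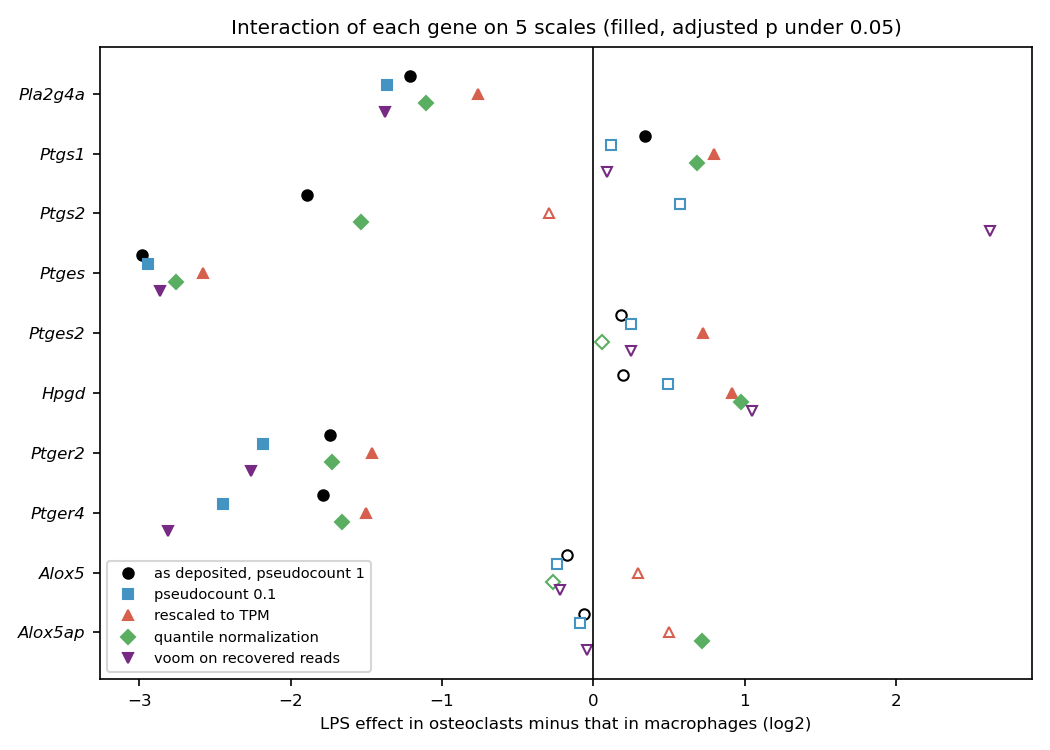
Interaction of each gene (osteoclast LPS effect less macrophage LPS effect, log2 units) under 5 ways of scaling; filled markers had an adjusted p under 0.05. Ptges, Pla2g4a, Ptger2 and Ptger4 are filled and below 0 under all 5, while Ptgs2 runs from -1.89 to 2.62.

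Without LPS the osteoclasts differed from macrophages in 9 of the 10 genes, where 77.8% of all genes were called: 8 were lower, against 39% of all genes, and Ptges2 was higher, against 38.8%. With LPS all 10 were called, where 83.9% of all genes were: 9 were lower, against 43%, and Ptges2 was higher, against 40.9%. The libraries of the cell types did not overlap for 9 genes without LPS (81.4% of all genes) and for all 10 with LPS (83.6%). Hpgd, Ptger2 and Ptger4 had passed the filter through macrophage libraries alone, so a lower level in osteoclasts was fixed by how they entered the test, and nothing is read from these counts. Ptges was not called before LPS, at -0.17 (limma adjusted p 0.249), although on the TPM scale it was, at -0.59 (limma adjusted p 0.00807). Differences of Ptgs1 were -3.07 and -2.73 without and with LPS (limma adjusted p 1.70e-11 and 3.23e-11). Those of Ptger4 were -2.03 and -3.82, in the direction fixed by its entry. Ptger2 was lower by 13.4-fold without LPS (9.65 to 19.3) and by 59.7-fold with it (43.5 to 84.3), and Ptger4 by 17.7-fold (14.1 to 22.5) and 122.5-fold (90.8 to 169.6).

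Markers of other cells moved with this comparison. Of 7 markers of marrow stroma and osteoblasts, 3 reached a mean of 1 FPKM in macrophages and none did in osteoclasts, with summed levels of 25.5 to 35.9 FPKM in untreated macrophages, 28.8 to 34.7 in treated ones, 0.155 to 0.401 in untreated osteoclasts and 0.304 to 0.742 in treated ones. Lepr had no read in untreated macrophages. Of 5 megakaryocyte and platelet markers 2 reached 1 FPKM in macrophages, Pf4 at means of 622.4 and 880.7 FPKM and Ppbp at 5.86 and 4.16 FPKM. Pf4 thus made up nearly the whole of the sums. These were 598.2 to 685.9 and 856.2 to 929.7 FPKM there and 8.24 to 10.3 and 11.4 to 19.6 FPKM in osteoclasts. In macrophages Itga2b was at means of 0.0713 and 0.0494 FPKM and Gp9 at 0.0333 and 0, and Gp1bb was at 0 in all groups. Of 8 neutrophil markers 3 reached it in macrophages, with sums of 5.41 to 7.66 and 6.75 to 16.0 FPKM there and of 0.305 to 0.740 and 0.571 to 1.88 FPKM in osteoclasts, with Ly6g and Elane at 0 in untreated macrophages. The part of such cells in the levels of the 10 genes was not tested. Mast cell markers, which rose with LPS in macrophages from sums of 0.223 to 0.343 to sums of 8.15 to 10.6 FPKM, did so with 1 gene of 7 at 1 FPKM and with Fcer1a, Ms4a2, Tpsb2 and Cma1 at 0. In osteoclasts their sums were 0 to 0.0780 FPKM without LPS and 0.203 to 0.531 with it, with none at 1 FPKM. The summed 5 dendritic cell markers lay between 0.259 and 0.280 FPKM in untreated macrophages and between 5.26 and 6.07 in treated ones, and between 0.602 and 0.692 in untreated osteoclasts and between 1.24 and 1.71 in treated ones, with 1 gene reaching 1 FPKM in each treated group. The 5 lymphocyte markers stayed under 0.134 FPKM in sum in every library.

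The order of levels changed with cell type and LPS. In untreated macrophages it ran Alox5ap, Hpgd, Ptgs1, Pla2g4a and Ptger4, each clear of the next, and then Ptges2, Ptgs2, Alox5 and Ptger2, whose libraries overlapped from each to the next, with Ptges lowest. After LPS Ptgs2 led at 166.6 FPKM ± 7.10, ahead of Alox5ap, Hpgd and Ptges, each clear of the next. In untreated osteoclasts the order began with Alox5ap, Ptges2, Pla2g4a, Ptgs1 and Alox5 and ended with Ptger2, Hpgd and Ptgs2, whose neighbouring libraries overlapped. In treated osteoclasts Ptgs2, at 14.1 FPKM ± 4.67, Alox5ap and Ptges2 led with overlapping neighbours, and Ptges followed at 4.26 FPKM ± 0.976.

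The other genes of the pathway were taken as 76 symbols, of which 43 were tested. In macrophages LPS raised 17, lowered 13 and left 13 without a call. In osteoclasts 6 rose, 2 fell and 35 were not called. The 30 called in macrophages and 8 in osteoclasts stand beside 69.9% and 17.7% of all genes tested, so these counts say nothing particular about the pathway. The split in macrophages rests on scaling, since 6 were higher and 30 lower on the TPM scale and 10 and 20 after quantile normalization. Without LPS 14 of the 43 were higher and 25 lower in osteoclasts, where 38.8% of all genes were higher and 39% lower, and on the TPM scale 8 and 27. With LPS 12 were higher and 29 lower, where 40.9% and 43% of all genes were, and on the TPM scale 13 and 26. Genes that passed the filter through 1 cell type alone had to differ here, so nothing is read from these counts.

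Of 12 tested genes that release or re-esterify arachidonic acid, 6 rose and 4 fell in macrophages, where 69.9% of all genes were called, and none was called in osteoclasts, where 17.7% were. On the TPM scale 1 was higher and 7 lower in macrophages. Pla2g15, the lysosomal phospholipase, fell by 1.44, from 35.3 FPKM ± 1.501 to 12.4 FPKM ± 0.976, and Daglb, which cleaves diacylglycerol, fell by 0.74. Plaat3, a phospholipase of adipocytes and other cells, rose by 0.76 and Acsl4, which couples arachidonic acid to coenzyme A, by 0.68, though on the TPM scale the difference of Acsl4 was 0.06 and not called. Without LPS 5 were higher and 6 lower in osteoclasts, against 38.8% and 39% of all genes, and on the TPM scale 2 and 7. On the log2(FPKM + 1) scale they were led by Lpcat2, a lysophospholipid acyltransferase, at -2.26, Pla2g15 at -1.95, the secreted phospholipase Pla2g2d at 1.75 and Daglb at -1.62. This order rests on scaling, since Pla2g2d was at 2.97 and Lpcat2 at -2.85 on the TPM scale.

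Among 6 other prostanoid synthases 2 rose and 3 fell in macrophages, against 69.9% of all genes called, while on the TPM scale and after quantile normalization 0 were higher and 5 lower. Tbxas1, the thromboxane synthase, fell by 0.37 in macrophages and by 0.30 in osteoclasts, and it was lower in osteoclasts, at -3.11 without LPS, with means of 22.1 FPKM ± 0.415 and 1.68 FPKM ± 0.0971. Hpgds, the hematopoietic prostaglandin D synthase, fell by 0.42 in macrophages and differed by -1.78 between untreated osteoclasts and macrophages. Ptges3, the cytosolic PGE synthase and p23 cochaperone, rose by 0.65 in macrophages on the deposited scale, but was at 0.0059 after rescaling to TPM and at -0.10 after quantile normalization, neither called. Prxl2b, a prostaglandin F synthase, differed by -1.85 between the untreated cell types.

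Of 5 tested leukotriene and lipoxygenase enzymes, 1 fell in macrophages (69.9% of all genes called) and Ltc4s alone rose in osteoclasts (17.7% called), from 2.85 FPKM ± 0.899 to 4.82 FPKM ± 0.472. In macrophages all 5 were lower on the TPM scale and 4 after quantile normalization. The rise of Ltc4s, the leukotriene C4 synthase, was 0.62 (SE 0.15, limma adjusted p 0.0145). Between the untreated cell types it differed by -1.42, osteoclasts being lower. Mgst3, a microsomal glutathione transferase that can also make leukotriene C4, was higher in osteoclasts by 2.07, at 94.96 FPKM ± 4.36 against 21.9 FPKM ± 1.28. Cotl1, a coactosin-like protein that binds 5-lipoxygenase, fell by 0.40 in macrophages.

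Of 10 tested transport and inactivation genes 4 rose and 2 fell in macrophages and 1 rose in osteoclasts, against 69.9% and 17.7% of all genes called. On the TPM scale 2 were higher and 8 lower in macrophages. Abcc1, an exporter of leukotriene C4, rose by 1.17 in macrophages and by 0.25 in osteoclasts. Abcc4, an exporter of prostaglandins, rose by 1.12 in macrophages, from 5.65 FPKM ± 0.146 to 13.5 FPKM ± 0.889. Cbr3, a carbonyl reductase, fell by 0.80 there. Ephx2, the soluble epoxide hydrolase, was higher in untreated osteoclasts by 3.94, at 15.8 FPKM ± 0.350 against 0.101 FPKM ± 0.0819, and Cbr3 was lower there, at -2.13.

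Among other receptors 3 of 13 were tested. Fpr2, a formyl peptide receptor that also binds lipoxin A4, rose by 3.87 in macrophages and by 2.32 in osteoclasts. The prostacyclin receptor Ptgir and the cysteinyl leukotriene receptor Cysltr1 were lower in untreated osteoclasts, at -2.14 and -2.08, and neither was called for LPS in either cell type on the deposited scale. In macrophages Ptgir was called lower on the TPM scale, at -0.74, and after quantile normalization, at -0.18, and Cysltr1 on the TPM scale, at -0.50, where its direction turned from 0.10. All 7 tested genes known to respond to cyclic AMP were called in macrophages, 4 higher and 3 lower, and 3 in osteoclasts, against 69.9% and 17.7% of all genes called. On the TPM scale 5 of the 7 were called in macrophages, 2 higher and 3 lower. Pde4b, a phosphodiesterase that breaks down cyclic AMP, rose by 4.43 in macrophages, from 0.636 FPKM ± 0.0780 to 34.3 FPKM ± 0.4995, and by 1.05 in osteoclasts, from 0.722 FPKM ± 0.0896 to 2.57 FPKM ± 0.392. Nr4a3, an orphan nuclear receptor, rose by 2.60 in macrophages, whereas Per1 and Nr4a1 fell by 1.03 and 0.76. Fosl2, an AP-1 subunit, was higher in untreated osteoclasts by 3.73.

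**Figure D5:**
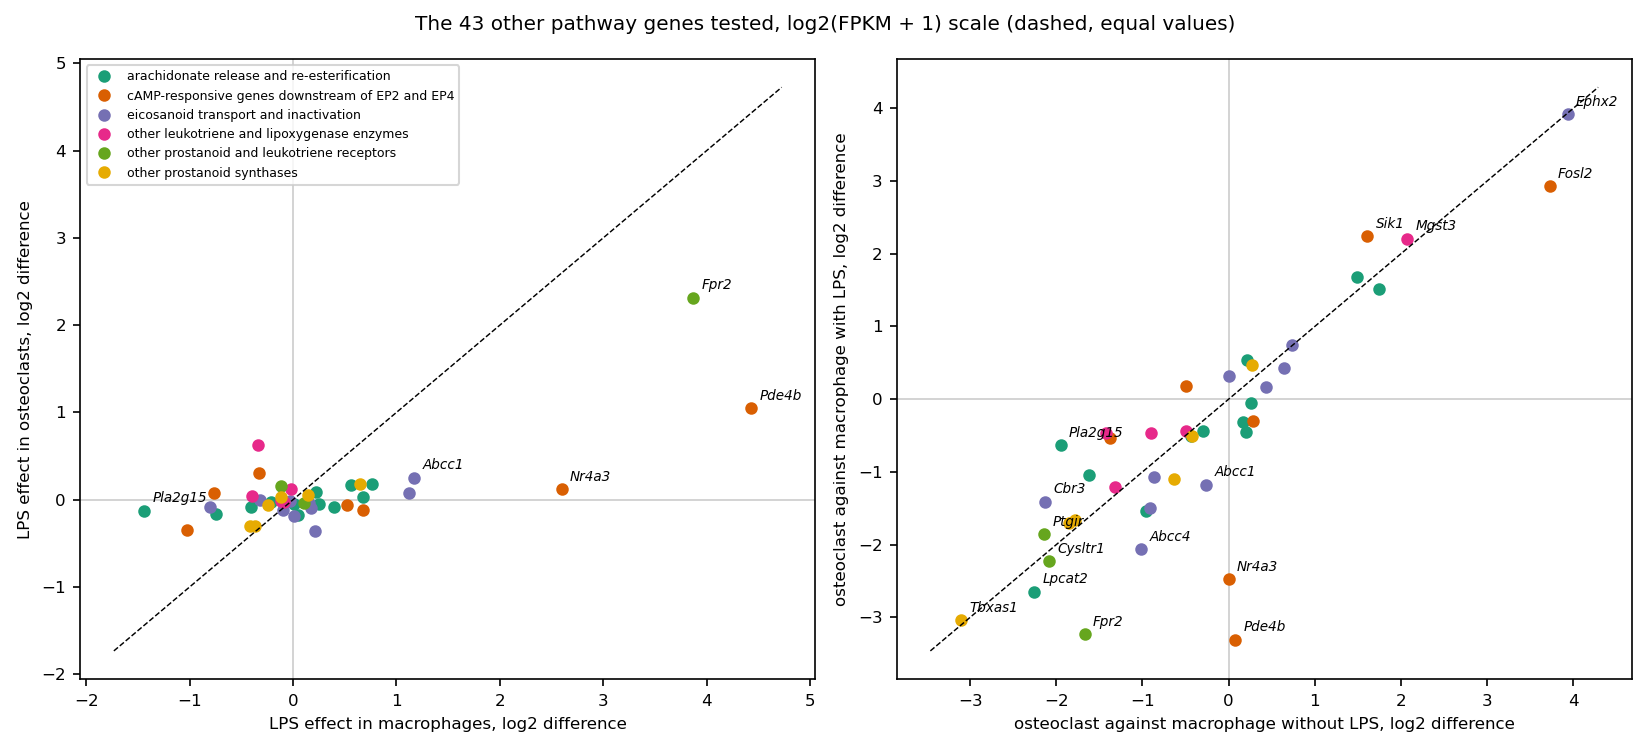
The 43 other pathway genes tested, coloured by list, on the log2(FPKM + 1) scale: left, LPS effect in macrophages against that in osteoclasts; right, osteoclast minus macrophage without LPS against with LPS; dashed lines mark equal values. Fpr2 at 3.87 and Pde4b at 4.43 have the largest macrophage LPS effects, and without LPS Ephx2 at 3.94 is furthest above 0 and Tbxas1 at -3.11 furthest below it between the cell types.

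Across the 12 libraries, which share 4 groups, the tested genes whose log2(FPKM + 1) was most like that of Ptgs2 were Ifit3, Ccl4 and Ccl3 (Pearson r 0.999, 0.999 and 0.999), and for Ptges they were Il6, Mx2 and Cxcl9 (0.999, 0.998 and 0.998). Fcrls, Eps15 and Abhd12 were nearest to Hpgd (0.999 or above), Ccnd2, Jak1 and Creb5 to Ptger2 (0.998 or above when rounded) and Cfp, Slc39a12 and Vkorc1 to Alox5 (0.989, 0.988 and 0.985). Within the 10 genes Pla2g4a and Ptger2 ran closest (r 0.997), followed by Hpgd and Alox5ap (0.993) and by Ptger2 and Ptger4 (0.988), and Ptgs2 and Ptges had r 0.977. These values describe 4 group means and the spread around them and carry no test.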

How the data were processed

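RNA from 12 libraries was sequenced after preparation with the NEBNext Ultra RNA kit, per the labels' protocols. The submitters' processing notes name fastp, STAR, featureCounts, DESeq2 and the build mm10, without roles or versions. The authors deposited FPKM per gene. Every one of the 25854 genes above 0 came out as whole reads in the 12 libraries (100% of genes, tolerance 0.02 reads), 25015 of them (96.75%) at the merged exon length of GENCODE M21 and the others at a length fitted to their steps, and the denominators departed by at most 8.4e-08% from median-of-ratios size factors; that scaling was worked out from the values and is not stated. Strand use in counting is not given in the sources used here.

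From these values, log2(FPKM + 1) was fitted with limma 3.58.1 (R 4.3.3; lmFit, contrasts, empirical Bayes with a trend) over all 12 libraries and 4 group means, for 11335 genes at 1 FPKM or more in 3 or more libraries, with Benjamini-Hochberg adjustment over all of them and a threshold of 0.05. The fit was also run on simulated counts, whose outcome is not given here. Count tests on the recovered reads used voom. Alternatives changed the pseudocount (0.1), the filter, the scaling (TPM, quantile), the libraries in the fit, the replicate block, the variance trend and the library weights, and left out each library in turn. Samples were grouped by their labels. Deviations of same-numbered libraries from their group means had low correlations (r from -0.0702 to 0.104 over 18 pairs), so they were not paired. Between control and LPS, r was 0.104, 0.0967 and -0.0529 in macrophages and 0.0718, 0.0828 and 0.0289 in osteoclasts. Such values do not exclude a pairing.

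The 10 genes and the pathway, marker and motif lists were chosen with earlier results of these data known. All 10 genes are named; other pathway genes are named as those with the largest absolute difference among the called genes of a list in the comparison described, up to 4 a list and comparison; the 3 nearest genes by Pearson r are named for 5 of the 10. Promoters are RefSeq windows on GRCm38.p6, matched for 9 of the 10 genes.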

Additional observations from a re-analysis of the deposited data

Results flagged for a closer look

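The LPS effect differed between osteoclasts and macrophages by the limma interaction test for 6 of the 10 genes on the deposited scale. The osteoclast effect minus the macrophage effect on the log2(FPKM + 1) scale was -2.98 for Ptges, -1.89 for Ptgs2, -1.78 for Ptger4, -1.74 for Ptger2, -1.21 for Pla2g4a and 0.34 for Ptgs1, where 56.6% of all genes tested were called. The count lies near that share and says nothing particular about the pathway. The value of Ptgs2 turned to 0.57 with a pseudocount of 0.1 and to 2.62 by voom, neither called. That of Ptgs1 lost its call in 7 of the 12 fits that left out a library. Groups of 3 libraries were too small for a search for outlying samples.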

How the results depend on the processing

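Of 1080 recomputed differences of the 10 genes, 1015 kept their direction and their side of the threshold. With a filter on a mean of at least 5 FPKM, fewer genes were tested and Alox5, Ptges2, Ptger2 and Ptger4 dropped out: 4851 genes and 4 of the 10 were called for LPS in macrophages, 5427 and 5 for cell type without LPS, 5694 and 6 with LPS, and 4018 genes for the interaction. The interaction of Ptgs2 turned to 0.57 with a pseudocount of 0.1, to 2.62 by voom and to 2.29 as a log2 double ratio of mean FPKM with untreated osteoclasts set to 3 reads a library; pseudocounts weigh on it because those osteoclasts held 6 reads. Other values that turned were not called as deposited, and the cause was not tested. Rescaling to TPM gave Alox5 -0.34 in macrophages and 0.29 for the interaction, -0.040 and -0.048 for Ptges2 and Alox5 in osteoclasts, and 0.50 for the interaction of Alox5ap. Quantile normalization gave -0.022 for Ptges2, -0.0032 for Alox5 and 0.0060 for Ptger2 in osteoclasts and 0.72 for the interaction of Alox5ap, for which library weights gave 0.0068. Leaving out each library in turn, the osteoclast effect ran from -0.012 to 0.062 for Ptges2, from -0.087 to 0.0059 for Pla2g4a, from -0.052 to 0.042 for Alox5, from -0.38 to 0.16 for Alox5ap and from -0.051 to 0.029 for Ptger2, and the interaction of Alox5ap from -0.30 to 0.24. Single libraries also gave calls: Alox5 rose in macrophages without LPS-treated macrophage replicate 2 (0.29, limma adjusted p 0.0133), and the interactions of Ptges2 and Hpgd were called without LPS-treated macrophage replicate 2 (0.24, limma adjusted p 0.0319) and without LPS-treated osteoclast replicate 2 (0.26, limma adjusted p 0.0323). The adjusted p lost its call for the macrophage effect of Ptges2 (0.0501 to 0.164) without any one library other than LPS-treated replicate 2 of either cell type, and for the interaction of Ptgs1 (0.0518 to 0.0881) without untreated macrophage replicate 1 or 2, LPS-treated macrophage replicate 3, untreated osteoclast replicate 2 or 3, or LPS-treated osteoclast replicate 1 or 3.

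The log2 ratios of the gene pairs moved when 1 was added to each FPKM: to -2.77, -1.33 and 2.89 for Ptgs2 to Ptgs1 in untreated macrophages, untreated osteoclasts and treated osteoclasts, to -1.08, 3.93 and -2.42 for Ptges to Ptges2 in untreated macrophages, treated macrophages and untreated osteoclasts, and to -0.83 and -0.11 for Ptger2 to Ptger4 in the untreated groups. With the replicate block the genes called were 7914, 1930, 8787, 9512 and 6422 for LPS in macrophages, LPS in osteoclasts, cell type without LPS, cell type with LPS and the interaction, and the 10 genes kept counts of 7, 3, 9, 10 and 6; 1 of the 18 same-numbered pairs had r above 0.1. Genes near 0 limit the precision: Ptgs2 and Hpgd in untreated osteoclasts rest on 0 to 4 reads a library.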
